A study of Mus musculus with 12 samples.

Results

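The comparison described here sets hippocampal slices frozen 3 hr after chemical long-term potentiation (cLTP, here LTP) against slices frozen 1 hr after the same stimulus. Its members were chosen by label alone: the 3 libraries of the 3 hr LTP group and the 3 libraries of the 1 hr LTP group, 6 of the 12 libraries of the series, across 17582 genes that passed the filter on low counts. Transcript levels in stimulated slices were therefore followed over time, without division by the level in unstimulated slices. The slices came from wild-type male C57BL/6 mice aged 2 to 3 months. Acute mini-slices, from which the dentate gyrus had been trimmed, recovered in an interface chamber. LTP slices received 50 uM forskolin, which activates adenylyl cyclase, for 5 min and then forskolin with 30 mM KCl and 10 mM calcium for 5 min. Control slices received 0.2% DMSO for 10 min and served here only as a reference for the passage of time. Each time point used 3 animals, which gave both LTP and control slices, and the animals at 1 hr and 3 hr were treated as different ones, so that time after the stimulus and animal cannot be told apart. Time in the chamber also ran 2 hr longer at 3 hr. Libraries were made only from slices in which Arc and the short Homer1 transcript had been induced and the long Homer1 transcript and Hprt had not changed, so these genes were part of the choice of samples.

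Strong stimulation of a neuron first activates immediate-early genes through kinases such as PKA and ERK and through the factors CREB and SRF. Many of these genes encode transcription factors (the Fos, Jun, Egr and Nr4a families, Npas4), and others encode proteins that act at the synapse, such as Arc and the short form of Homer1. Their transcripts are short-lived, and most are followed by later genes that encode secreted factors, matrix enzymes and inhibitors of the same kinases. A slice is also injured tissue, in which microglia and astrocytes change their transcripts while it is kept in the chamber. NF-kB, a family of dimeric factors held in the cytoplasm by inhibitors such as IkB-alpha (Nfkbia), drives much of the inflammatory part of that response.

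Total counts of the 6 LTP libraries lay between 37118382 and 44603199, and 3 counts corresponded to at most 0.0808 CPM (counts relative to library size, scaled by TMM over all 12 libraries). The first principal component of these libraries accounted for 63.3% of their variance, with 1 hr LTP at -30.12 to -18.83 and 3 hr LTP at 10.66 to 35.21, so that it divided the times. 3 hr LTP replicate 2 lay nearest to the 1 hr libraries and was lowest on the second component (-22.1), which held 14.2%. CPM are relative to the library total, so a level below is a share of the counted RNA and not an amount per slice. The values of a group are those of 3 animals, and ± denotes the SD with n = 3.

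In LTP slices, 6056 genes differed between 3 hr and 1 hr (34.4% of those tested), with 3258 higher at 3 hr (18.5%) and 2798 lower (15.9%). A gene was called at an adjusted p under 0.1 (edgeR quasi-likelihood test, Benjamini-Hochberg over all genes tested) and a fold change over 1.2. Most changes were modest: the median log2 fold change was 0.51 among rises and -0.45 among falls, and 423 rises and 403 falls exceeded 2-fold. Over all genes tested the median was 0.01. Where parentheses after a gene hold 2 bare values, they are its log2 fold change and its adjusted p from this test. In bulk RNA, fewer cells of a type and less RNA per cell cannot be told apart. Genes rich in GC rose more often than others, so counts are also given with offsets per library that remove trends with GC content and exonic length. With these offsets, 2188 of all 17430 genes tested were called higher and 2230 lower. The values at 3 hr and at 1 hr did not overlap in 46.1% of all genes tested and in 92.2% of the rises and 94.0% of the falls.

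The inflammatory genes showed the clearest rise. Of 32 genes of NF-kB and of cytokines and chemokines that it controls, 25 rose, 0 fell and 7 did not pass, with a median log2 fold change of 1.08. In control slices 24 of the same 32 genes were called higher and 0 lower over the same time (median 0.95). Il1b, the inflammatory cytokine interleukin-1 beta, was at 6.1, 8.78 and 10.2 CPM in the 1 hr LTP replicates 1, 2 and 3 and at 47.9, 56.6 and 29.9 CPM at 3 hr (log2 fold change 2.41, SE 0.24, adjusted p = 0.00043). The groups were well apart, although 3 hr LTP replicate 3 was lower than the other 3 hr replicates. Cxcl2, a neutrophil chemokine, was at 11.9, 13.5 and 12.5 CPM and then at 40.2, 43.6 and 41.1 CPM (log2 fold change 1.72, SE 0.09, adjusted p = 2.4e-05), a 3.28-fold rise with little spread in either group. Tnfaip2, a gene induced by tumour necrosis factor, rose from 9.94, 8.89 and 8.65 CPM to 47.1, 44.7 and 34.8 CPM (log2 fold change 2.19, SE 0.13, adjusted p = 3.5e-05). Il1rn, which encodes the antagonist of the interleukin-1 receptor, rose as far as the cytokine that it opposes, from 3.01, 4.9 and 2.47 CPM to 21.2, 20.2 and 16 CPM (log2 fold change 2.46, SE 0.22, adjusted p = 0.0003). The 3 hr values of both genes lay above every 1 hr value.

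Other secreted members rose as well. Ccl2, a monocyte chemokine, rose from 9.85 to 33.6 CPM (log2 fold change 1.76, adjusted p = 0.00035), Ccl7 from 2.88 to 8.15 CPM (1.49, 0.00039) and Cxcl10, an interferon-responsive chemokine, from 8.64 to 44.6 CPM (2.36, 0.00043). Il6 rose from 9.47 to 22 CPM (1.2, 0.00083) and Lif, a cytokine of the same family, from 5.27 to 15.7 CPM (1.56, 0.0009). Tnf was at 19 ± 0.542 CPM at 1 hr and 17.8 ± 4.13 CPM at 3 hr and did not pass (log2 fold change -0.1, adjusted p = 0.65). Ccl3 likewise stood at 86.4 ± 16.1 CPM at 1 hr and 85.9 ± 11.8 CPM at 3 hr (-0.02, 0.93). The cytokine genes with the largest fold changes were scarce transcripts at 1 hr. Il10, an anti-inflammatory cytokine, was at 0.146, 0.29 and 0.165 CPM and then at 2.14, 2.07 and 1.5 CPM (log2 fold change 3.24, SE 0.31, adjusted p = 0.00041). Il12b, a subunit of interleukins 12 and 23, went from 2.6, 1.66 and 2.05 CPM to 14.3, 15.2 and 9.65 CPM (log2 fold change 2.62, SE 0.21, adjusted p = 0.00019). Ccr7, a chemokine receptor, was at 0.559, 0.422 and 0.4 CPM and then at 4.79, 3.78 and 1.64 CPM (log2 fold change 2.88, SE 0.39, adjusted p = 0.0015), with 3 hr LTP replicate 3 again the lowest of its group.

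Several of the factors themselves and of their inhibitors rose. Nfkb1, the p105/p50 subunit, was at 50.1, 54.9 and 51.6 CPM at 1 hr and 108, 112 and 114 CPM at 3 hr (log2 fold change 1.08, SE 0.07, adjusted p = 6.9e-05) with wide separation. In control slices it was at 49.4, 50.8 and 50.7 CPM at 1 hr and 65.1, 69 and 65.2 CPM at 3 hr. Nfkb2 rose from 11.2 to 27.9 CPM (1.3, 0.00019) and Relb, its usual partner, from 9.74 to 21.7 CPM (1.14, 0.00024). Rel was at 7.41 ± 0.524 CPM at 1 hr and 9.15 ± 1.39 CPM at 3 hr and did not pass (adjusted p = 0.11), but was called with offsets for GC content and length (0.42, 0.046). The inhibitors Nfkbia (0.82, 0.00024) and Nfkbie (1.07, 0.00042) rose, as did Tnfaip3, the ubiquitin-editing enzyme A20 that restrains the pathway (0.96, 0.00013). Nfkbiz, at 67.5 and 70.7 CPM, did not pass. With offsets for GC content and exonic length 25 of the 32 genes were also called higher and 0 lower, with Rel and the adhesion molecule Vcam1 called in place of Csf1 and Rela.

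**Figure D1:**
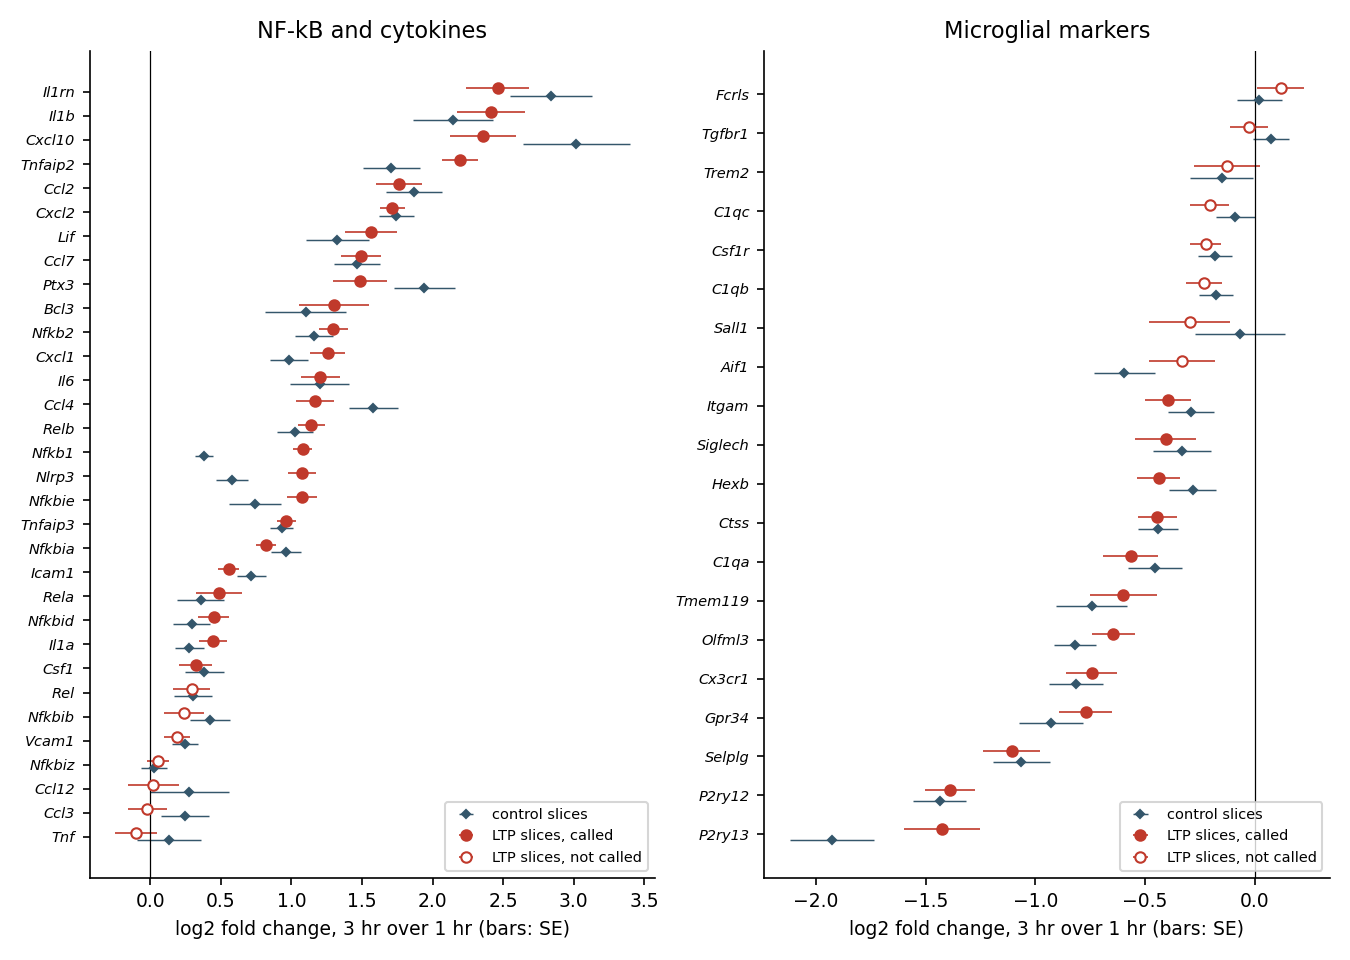
Log2 fold change from 1 hr to 3 hr for each of 32 genes of NF-kB and cytokines (left) and 20 microglial markers (right), with bars of 1 SE. Filled circles are genes called in LTP slices, open circles genes not called, and diamonds the same genes in control slices. In LTP slices 25 of 32 genes on the left rose and 12 of 20 on the right fell.

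The bases before the start sites of the NF-kB and cytokine genes were searched on both strands for GGG, any 2 bases and TTTCC. These letters are a form of the site that NF-kB dimers bind. RefSeq promoter entries of GRCm38.p6 were matched for 25 of the 32 genes, and 9 of these (36%) held the letters within 250 bases before a start. Of 12172 tested genes with an entry, 211 (1.73%) held them, and 39 of 2259 called rises (1.73%). The list was made up of NF-kB genes and genes that NF-kB controls, so its higher share may follow from that choice. The stretches below are shown because they belong to genes whose values are given here and because Cxcl1 and Cxcl2, neighbours in the genome, carry nearly the same site. The matched letters are in capitals and each stretch is written 5′ to 3′ on the strand of its gene. In Nfkbia the match is to the opposite strand.
Cxcl1 (chr5:90891162-90891195, plus strand): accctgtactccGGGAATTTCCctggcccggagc
Cxcl2 (chr5:90903790-90903823, plus strand): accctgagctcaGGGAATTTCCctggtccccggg
Il6 (chr5:30013058-30013091, plus strand): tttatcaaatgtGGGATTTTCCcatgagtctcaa
Il1rn (chr2:24345308-24345341, plus strand): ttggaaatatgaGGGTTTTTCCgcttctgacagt
Nfkb2 (chr19:46305693-46305726, plus strand): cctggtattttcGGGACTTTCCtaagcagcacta
Nfkbia (chr12:55492655-55492688, minus strand): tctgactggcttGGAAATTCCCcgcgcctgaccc
All of these genes rose in LTP slices, as did Csf1 and Tnfaip3, which also held a match (the call of Csf1 was lost with the offsets), whereas Rel held a match and did not pass. A match of letters describes the sequence and does not show that a factor binds there.

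Genes of cytokine signalling rose in part. Of 22 tested genes of the JAK-STAT pathway and its SOCS inhibitors, 11 rose, 2 fell and 9 did not pass, with a median of 0.25, and 10 rose and 1 fell with the offsets (median 0.16). Socs1 rose from 0.67 to 2.57 CPM (1.92, adjusted p = 0.0011), Socs3 from 84.8 to 143 CPM (0.74, 0.00089) and Cish from 1.88 to 3.96 CPM (1.06, 0.0054); all encode feedback inhibitors of the receptors. Stat3, which acts downstream of the interleukin-6 family, was at 87.7, 91.1 and 77.9 CPM at 1 hr and at 155, 152 and 149.9 CPM at 3 hr (log2 fold change 0.82, SE 0.08, adjusted p = 0.00035), with no overlap. Osmr, the oncostatin M receptor, rose from 53.3 to 89.6 CPM (0.74, 0.0044). The shared receptor subunit Il6st and the kinases Jak1 and Jak2 did not pass, with log2 fold changes of 0.03, -0.11 and -0.03. Of 20 genes described in reactive astrocytes, 13 rose and 0 fell (median 0.57), and 13 rose and 0 fell with the offsets (median 0.72). These included Steap4 (1.95, 0.001), Aspg (1.4, 0.00046), S1pr3 (0.99, 0.00085) and the hyaluronan receptor Cd44 (1.01, 0.0015). Their summed level was 711 to 834 CPM in the 1 hr LTP libraries and 952 to 1035 CPM at 3 hr. Gfap, the intermediate filament that is the classic marker of that state, was at 437 ± 37.4 CPM at 1 hr and 498 ± 35.1 CPM at 3 hr and did not pass (adjusted p = 0.15).

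Microglial markers moved the other way. Of 20 markers, 12 fell, 0 rose and 8 did not pass (median -0.42), and their summed level was 598 to 630.4 CPM in the 1 hr LTP libraries and 436 to 490 CPM at 3 hr. The largest falls were those of purinergic receptors that microglia use to sense ATP and ADP. P2ry12 was at 34.7, 36.8 and 36.1 CPM at 1 hr and 14.6, 15.4 and 11.4 CPM at 3 hr (log2 fold change -1.39, SE 0.11, adjusted p = 0.00019), a 2.61-fold fall, and P2ry13 at 5.88, 6.35 and 8.06 CPM and then 2.34, 3.05 and 2.19 CPM (log2 fold change -1.42, SE 0.17, adjusted p = 0.00096). In neither did the groups come near each other. Selplg (-1.11, 0.00083), Gpr34 (-0.77, 0.0022), the fractalkine receptor Cx3cr1 (-0.74, 0.0022) and Tmem119 (-0.6, 0.016) fell as well. With the offsets 14 fell and 0 rose. Other genes that define these cells did not pass: Csf1r, the receptor on which they depend, was at 71.6 ± 3.03 CPM at 1 hr and 61.7 ± 2.48 CPM at 3 hr (-0.22, 0.034; -0.43 and called with the offsets), Trem2 at 6.18 ± 0.784 CPM at 1 hr and 5.69 ± 0.935 CPM at 3 hr (-0.13, 0.55) and Fcrls at 21.3 ± 1.62 CPM at 1 hr and 23.2 ± 2.9 CPM at 3 hr (0.12, 0.44). Control slices showed 13 of the same 20 markers lower at 3 hr and 0 higher. The part of microglia in the rise of the cytokine genes was not tested.

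Genes of the extracellular matrix and its remodelling formed the next large group, with 21 of 32 higher, 2 lower and a median of 0.56 (17 higher and 1 lower with the offsets). In control slices 19 of the same 32 genes were called higher and 4 lower over the same time (median 0.59). Thbs1, thrombospondin 1, had the smallest p of all rises, at 33.9, 33.8 and 30.1 CPM at 1 hr and 122, 108 and 114 CPM at 3 hr (log2 fold change 1.8, SE 0.08, adjusted p = 1.5e-05). Its control levels were 15.1, 18.7 and 16.3 CPM at 1 hr and 41.9, 34.2 and 23.3 CPM at 3 hr, so LTP slices were the higher at each time. Adamts4, an aggrecanase that cleaves lecticans, was at 40.4, 42.6 and 37.9 CPM and then at 112, 105 and 126 CPM (log2 fold change 1.5, SE 0.09, adjusted p = 3.5e-05), and Adamts1 rose from 231 to 326 CPM (0.49, 0.0015). Has1, a hyaluronan synthase, went from 0.583, 0.396 and 0.188 CPM to 2.86, 1.8 and 2.27 CPM (log2 fold change 2.56, SE 0.35, adjusted p = 0.0015). In control slices Has1 stayed at 0.336, 0.248 and 0.592 CPM and 0.389, 0.544 and 0.389 CPM, but the difference between the changes did not pass (log2 2.67, SE 0.55, adjusted p = 0.18). Has2 rose from 3.48 to 7.47 CPM (1.1, 0.0023), and Has3 did not pass (adjusted p = 0.99). The plasminogen system rose in several of its parts: Plat, tissue plasminogen activator (from 73.8 to 116 CPM; 0.64, 0.0016), Plau (0.78, 0.0037) and its receptor Plaur (0.8, 0.0015). The proteoglycan Vcan (-0.34, 0.034) and the link protein Hapln1 (-0.39, 0.018) fell, calls lost without 1 hr LTP replicate 2 for Vcan and with the offsets for Hapln1.

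Among immediate-early transcription factors the members went separate ways. Of 24, 9 rose, 3 fell and 12 did not pass, and with offsets for GC content and length 5 were higher and 4 lower. Their median of 0.25 became -0.02 with the offsets and 0.08 without 3 hr LTP replicate 3. The falls were those of Npas4, Egr2 and Junb. Npas4, a neuronal factor induced by calcium entry, was at 119, 128 and 156 CPM at 1 hr and 48.2, 47.7 and 75.1 CPM at 3 hr (log2 fold change -1.24, SE 0.17, adjusted p = 0.0015); 3 hr LTP replicate 3 kept the highest level of its group and still lay below every 1 hr value. Control levels of Npas4 were 24.2, 31.5 and 20.3 CPM and 18.7, 20.2 and 24.9 CPM. Egr2 was at 61.3, 62.7 and 60.8 CPM and then at 28.7, 39.2 and 28.9 CPM (log2 fold change -0.94, SE 0.12, adjusted p = 0.001), against 10.8, 12.3 and 11.6 and 10.9, 14.3 and 11.8 CPM in controls. Junb went from 412, 300.3 and 402 CPM to 277, 274 and 317 CPM (log2 fold change -0.37, SE 0.12, adjusted p = 0.038), and its call was lost when 1 hr LTP replicate 1, 1 hr LTP replicate 3 or 3 hr LTP replicate 1 was left out.

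Most other immediate-early transcripts were not called lower in the 2 hr between the time points. Fos was at 829, 798 and 739 CPM at 1 hr and at 750.2, 719 and 783 CPM at 3 hr (log2 fold change -0.08, SE 0.08, adjusted p = 0.45), with overlapping groups, while its control levels were 193, 279 and 212 and 259.6, 304 and 253 CPM. Nr4a1 (from 135 to 137 CPM, 0.01), Nr4a2 (from 86.9 to 89.5 CPM, 0.03), Fosb (from 159.6 to 169 CPM, 0.07) and Egr1 (from 71.8 to 87.2 CPM, 0.27) did not pass either, with adjusted p of 0.97, 0.85, 0.79 and 0.37. Rises were found for Fosl2, a late partner of the Jun proteins (84.2, 75.7 and 76.2 CPM, then 136, 123 and 156 CPM; log2 fold change 0.8, SE 0.09, adjusted p = 0.00079). Csrnp1 (0.88, 0.00049), Ier5 (0.55, 0.003) and Nfil3 (0.37, 0.0092) rose too. Egr4 (0.72, 0.035) and Jund (0.53, 0.0093) were called, but with offsets for GC content and length they stood at -0.06 and -0.09.

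Arc, whose protein acts in the removal of AMPA receptors, was at 592, 538 and 533 CPM at 1 hr and 504, 511 and 541 CPM at 3 hr and did not pass (log2 fold change -0.11, SE 0.07, adjusted p = 0.3). Its control level was 151, 221 and 131 CPM at 1 hr, where replicate 2 is the library set aside in the control fit, and 206, 219 and 212 CPM at 3 hr. With offsets for GC content and length Arc was called lower in LTP slices (-0.42, adjusted p = 0.0038), and so was Gadd45g, a stress-responsive regulator of DNA demethylation and kinase signalling, which was otherwise at 75.6 ± 1.81 CPM at 1 hr and 72.5 ± 5.24 CPM at 3 hr (-0.07, 0.5; -0.27 with the offsets, 0.013). Homer1, all transcripts counted together, rose from 555, 568 and 495 CPM to 691, 914 and 610.5 CPM (log2 fold change 0.44, SE 0.13, adjusted p = 0.033). 3 hr LTP replicate 2 was much the highest, and the call was lost without it or without 1 hr LTP replicate 3. Bdnf, the neurotrophin, was at 170.1 ± 3.66 CPM at 1 hr and 159.6 ± 9.39 CPM at 3 hr and did not pass (-0.1, 0.29).

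The other effector genes of activity divided likewise: of 35, 17 rose, 7 fell and 11 did not pass (median 0.12). Leaving out each library in turn moved that median between 0.07, with 3 hr LTP replicate 2 left out, and 0.29, with 1 hr LTP replicate 1 left out. With the offsets 14 rose and 5 fell, and the falls numbered 2 without 3 hr LTP replicate 1 and 3 without 1 hr LTP replicate 2. The fall of Btg2, an antiproliferative adaptor of the CCR4-NOT deadenylase, had the smallest p of all falls. Btg2 was at 227, 238 and 208 CPM at 1 hr and 87.2, 94.7 and 88.2 CPM at 3 hr (log2 fold change -1.33, SE 0.08, adjusted p = 3.5e-05), a 2.51-fold fall with wide separation. In control slices it lay at 32.6, 39.8 and 38.7 CPM and 36.2, 35.8 and 35 CPM. Penk, preproenkephalin, fell from 32.6 to 21.5 CPM (-0.61, 0.0013). Among rises, Inhba, the activin A subunit, was at 7.87, 8.15 and 5.24 CPM and then at 23.4, 26.7 and 28.7 CPM (log2 fold change 1.88, SE 0.16, adjusted p = 0.00024), and every 3 hr value exceeded every 1 hr value. The peptide genes Trh (from 4.55 to 12.4 CPM; 1.44, 0.0005), Cartpt (from 1.38 to 2.8 CPM; 1.01, 0.0072) and Tac1 (from 8.09 to 12.4 CPM; 0.61, 0.0083) rose. So did Nptx2, a pentraxin that clusters AMPA receptors (from 84.7 to 125 CPM; 0.55, 0.0026), Gadd45b (0.87, 0.0003), the small GTPase Gem (0.9, 0.00083) and the kinase Pim1 (0.71, 0.0013). Plk2, which was at 875 ± 32.2 CPM at 1 hr and 838 ± 102 CPM at 3 hr, did not pass (-0.07, 0.59).

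**Figure D2:**
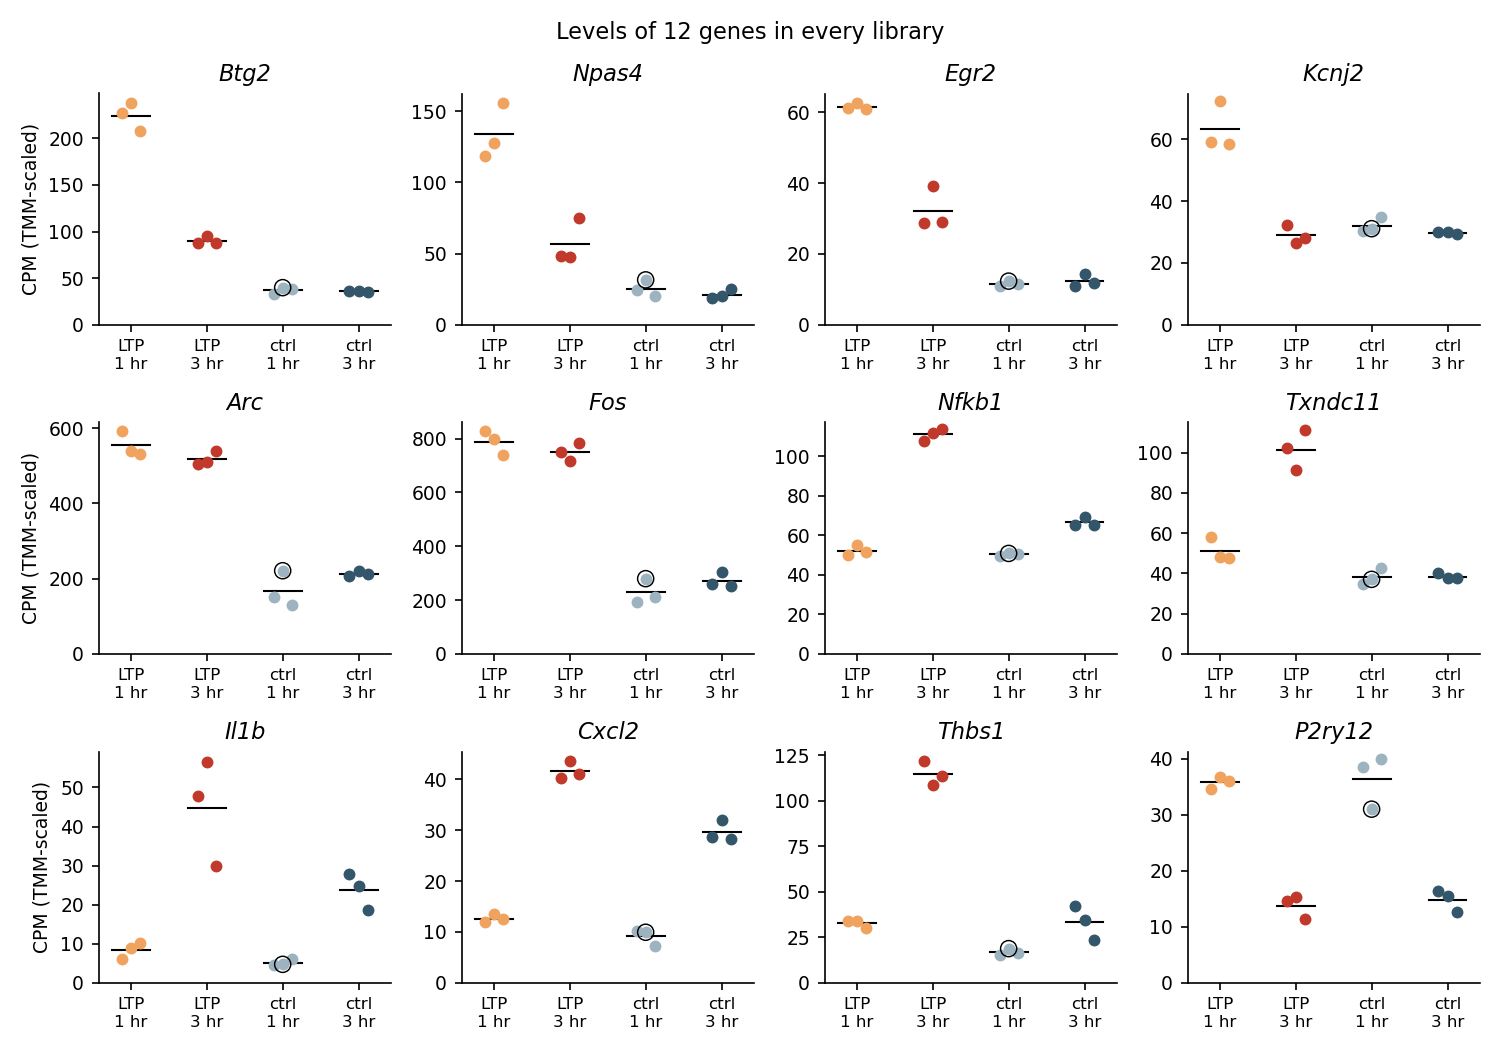
Level of 12 genes in every library, in TMM-scaled CPM on linear axes from 0. Points are the 3 replicates of a group, lines their mean, and the circled point is 1 hr control replicate 2, which was left out of the fits with controls. Btg2, Npas4, Egr2 and Kcnj2 fell between 1 hr and 3 hr of LTP, Arc and Fos did not pass, Nfkb1, Txndc11, Il1b, Cxcl2 and Thbs1 rose, and P2ry12 fell.

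The palindrome TGACGTCA, the full cAMP response element (CRE) that CREB binds, was searched in the same way, since forskolin raises cAMP. It was present before 351 of 12172 tested genes (2.88%), 76 of 2259 rises (3.36%) and 57 of 1879 falls (3.03%). Of the 26 effector genes with an entry, 6 held it (Arl4d, Btg2, Cartpt, Pcsk1, Plk2 and Scg2), and of 19 feedback genes, 3 (Dusp1, Dusp8 and Errfi1). The stretches of genes with opposite changes are shown, with the element in capitals.
Btg2 (chr1:134079302-134079333, minus strand): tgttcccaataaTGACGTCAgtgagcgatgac
Dusp1 (chr17:26508596-26508627, minus strand): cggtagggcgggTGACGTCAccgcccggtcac
Has1 (chr17:17855252-17855283, minus strand): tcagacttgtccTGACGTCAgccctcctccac
Cartpt (chr13:99900776-99900807, minus strand): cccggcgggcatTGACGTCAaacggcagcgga
Of these and the other genes just named, Btg2, Dusp1, Errfi1 and Scg2 fell from 1 hr to 3 hr, Has1, Cartpt, Dusp8 and Pcsk1 rose, and Plk2 and Arl4d did not pass. The calls of Errfi1, Scg2 and Dusp8 were lost with the offsets, and that of Pcsk1 without 1 hr LTP replicate 1, 1 hr LTP replicate 3 or 3 hr LTP replicate 2.

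Of 24 feedback inhibitors of MAPK and cAMP signalling, 13 rose and 3 fell, with a median of 0.33. With the offsets 11 rose and 3 fell (median 0.23), and 1 fell without 1 hr LTP replicate 1 or without 3 hr LTP replicate 1. Dusp2, a nuclear phosphatase of ERK, was at 3.52, 2.72 and 2.63 CPM at 1 hr and at 9.63, 8.68 and 6.83 CPM at 3 hr (log2 fold change 1.49, SE 0.17, adjusted p = 0.00071). Dusp4 (from 41.3 to 58.1 CPM; 0.48, 0.0033), Dusp10 (0.59, 0.0041), Spry4 (0.76, 0.0056), Spry2 (0.36, 0.0052) and Spred2 (0.57, 0.022) rose as well. In the cAMP branch, the kinase Sik1 (from 38.5 to 62.7 CPM; 0.69, 0.0041), the factor Crem (from 25.5 to 36.3 CPM; 0.5, 0.0042) and the phosphodiesterase Pde4b (from 253 to 351 CPM; 0.46, 0.002) were higher. The phosphodiesterases Pde4d and Pde10a did not pass, with log2 fold changes of 0.03 and 0.18. Dusp6, the cytoplasmic ERK phosphatase, went against the group, at 272, 283 and 292 CPM and then 175, 216 and 178 CPM (log2 fold change -0.58, SE 0.09, adjusted p = 0.0022). Dusp1 fell too (-0.5, 0.042), a call lost without 1 hr LTP replicate 1, 1 hr LTP replicate 3 or 3 hr LTP replicate 1.

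Of 30 tested growth factor genes, 9 rose and 2 fell (median 0.12), and 9 rose and 2 fell with the offsets (median 0.09). Without 3 hr LTP replicate 3 the median was 0.06. Besides Inhba, Gdnf rose from 0.475 to 1.78 CPM (1.88, 0.0011), Hbegf from 36.4 to 51 CPM (0.48, 0.0064) and Fgf2 from 2.58 to 4.48 CPM (0.79, 0.012). The neurotrophin Ntf3 fell from 4.16 to 2.24 CPM (-0.91, 0.0081) and Fgf1 from 64.4 to 47.7 CPM (-0.44, 0.0031).

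Counts of synaptic receptor genes changed with the offsets for base composition. Of 40 glutamate receptors and scaffolds, 15 rose and 4 fell (median 0.17), but with offsets for GC content and length 4 rose and 2 fell (median -0.05). Shank1, a scaffold of the postsynaptic density (136, 132 and 123 CPM, then 245, 189.7 and 321 CPM; log2 fold change 0.94, SE 0.16, adjusted p = 0.003), and Grin2a, an NMDA receptor subunit (from 271 to 368 CPM; 0.43, 0.0096), stayed called with the offsets. The count of rises also depended on the libraries, with 8 higher and 0 lower without 1 hr LTP replicate 2, 11 higher and 2 lower without 3 hr LTP replicate 3 (medians 0.08 and 0.05), and 16 higher without 3 hr LTP replicate 2. Of 22 genes of the GABA synapse, 9 fell and 1 rose (median -0.17), and 5 fell and 1 rose with the offsets (median -0.09) or without 3 hr LTP replicate 3 (10 fell and 4 rose without 3 hr LTP replicate 2). The falls that remained included the receptor subunit Gabra5 (302, 325 and 371 CPM, then 213, 236 and 228 CPM; log2 fold change -0.57, SE 0.09, adjusted p = 0.0021) and the synthetic enzyme Gad2 (from 115 to 86 CPM; -0.43, 0.003). Gad1, the other such enzyme, was at 255 ± 4.67 CPM at 1 hr and 296 ± 21.2 CPM at 3 hr and did not pass (0.21, 0.061).

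Of 46 potassium channel genes, 12 rose (26.1%) and 7 fell (15.2%), beside 18.5% and 15.9% of all genes tested. With the offsets 5 rose and 6 fell, beside 2188 and 2230 of all 17430 genes in that fit. The largest change was the fall of Kcnj2, an inward rectifier that sets the resting potential, from 59.1, 72.5 and 58.6 CPM to 32.3, 26.3 and 28.1 CPM (log2 fold change -1.14, SE 0.11, adjusted p = 0.00042). At 3 hr Kcnj2 in LTP slices overlapped the controls, which were at 30.2, 31.1 and 34.7 CPM at 1 hr and 30.0, 30.1 and 29.4 CPM at 3 hr. Kcnip4, an auxiliary subunit of A-type channels, fell from 77.2 to 50.9 CPM (-0.61, 0.0016) and Kcnj3, a G protein-gated channel, from 312 to 229 CPM (-0.46, 0.0021). Kcnj4 (0.75, 0.0015) and Kcnk9 (0.89, 0.001) rose.

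Markers of neurons and of the other cell types were checked against the tissue. Of 10 markers of dentate granule cells 0 were called in the 6-library edgeR fit. In the edgeR test of the LTP change against the control change, 0 had an unadjusted p under 0.05. In other fits of the LTP libraries 1 of these markers fell with the offsets, 1 rose with DESeq2 and 3 rose and 1 fell without 3 hr LTP replicate 2. They were present although the gyrus had been trimmed, with a sum of 338 to 496 CPM at 1 hr and 367 to 553 CPM at 3 hr. Of 15 markers of excitatory neurons, 6 rose and 1 fell, and 2 rose and 2 fell with the offsets (9 rose and 2 fell without 3 hr LTP replicate 2). Neurod6, a pyramidal cell factor, was the one that fell, from 315 to 169 CPM (-0.91, 0.00068), whereas Slc17a7, the vesicular glutamate transporter of these cells, was at 645 ± 109 CPM at 1 hr and 757 ± 140.4 CPM at 3 hr and did not pass (0.22, 0.27). Of 12 interneuron markers 5 fell (3 without 1 hr LTP replicate 3), among them Cck (-0.43, 0.013) and Calb2 (-0.61, 0.022), and Sst did not pass (-0.16, 0.48). Of 14 astrocyte markers 2 rose and 0 fell (1 and 0 with the offsets, 3 and 2 without 3 hr LTP replicate 2). Of 18 oligodendrocyte markers 7 rose and 2 fell, and 6 rose and 1 fell with the offsets (0 fell without 1 hr LTP replicate 2 or without 3 hr LTP replicate 1, and 5 rose and 1 fell without 1 hr LTP replicate 1), with the lineage factor Sox10 among the rises (0.78, 0.004). Of 18 endothelial and mural markers 5 rose and 5 fell, against 2 and 6 with the offsets, 2 and 5 without 1 hr LTP replicate 2, 3 and 4 without 3 hr LTP replicate 1 and 3 and 5 without 3 hr LTP replicate 3. Slco1a4, a transporter of the blood-brain barrier, was at 20.8, 19.7 and 22.7 CPM and then at 9.34, 11 and 8.84 CPM (log2 fold change -1.12, SE 0.11, adjusted p = 0.00039), and the endothelial receptor Tek fell (-0.62, 0.0076), whereas Eng, a co-receptor of the TGF-beta family, rose (1.13, 0.011). Of 11 markers of fibroblasts and ependymal cells 1 fell, the ciliary gene Ccdc153 (-0.77, 0.011), and 2 fell with the offsets or with either 1 hr LTP replicate 3 or 3 hr LTP replicate 2 left out.

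**Figure D3:**
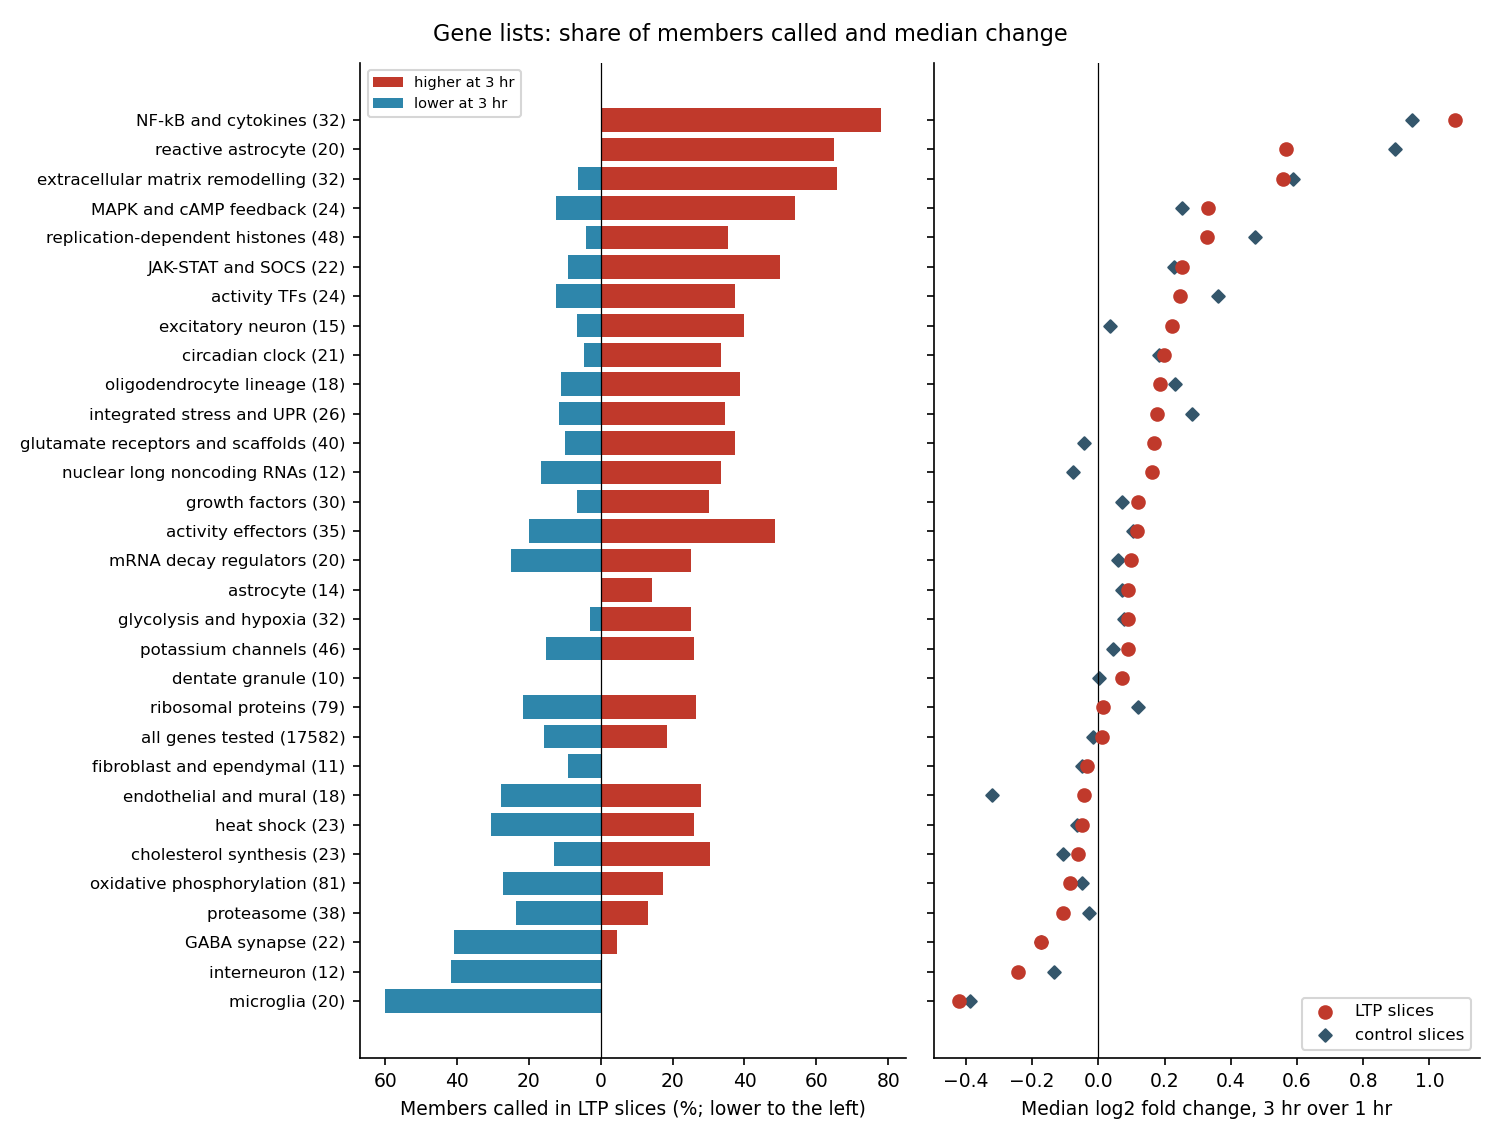
Gene lists with the number of members tested, ordered by the median log2 fold change in LTP slices. Left, share of members called higher (right of 0) and lower (left of 0) at 3 hr in LTP slices; right, median change in LTP slices (circles) and control slices (diamonds). NF-kB and cytokine genes stand at the top (median 1.08) and microglial markers at the bottom (-0.42), with all genes tested at 0.01.

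Stress and housekeeping groups were mixed. Of 23 heat shock genes 6 rose and 7 fell, and with offsets for GC content and length 3 rose and 1 fell (3 rose and 6 fell without 1 hr LTP replicate 2). The letters GAANNTTC, part of the element that heat shock factors bind, lay before 8 of the 18 that have a promoter entry (44.4%) and before 6.14% of all genes with one. The list was chosen as heat shock genes, so its higher share may follow from that choice. The co-chaperone Bag3 rose from 11.3 to 19.6 CPM (0.78, 0.021), and the chaperone Dnajb4 fell from 116 to 88.8 CPM (-0.4, 0.01). Of 26 genes of the integrated stress and unfolded protein responses 9 rose and 3 fell, against 6 and 1 with the offsets and 9 and 1 without 3 hr LTP replicate 1. Slc7a11, the cystine transporter, rose from 80.8 to 139 CPM (0.77, 0.002) and Ern1, a sensor of the endoplasmic reticulum, from 14.3 to 21.4 CPM (0.57, 0.0062), whereas Atf4 stood at 202 ± 3.15 CPM at 1 hr and 199 ± 15.7 CPM at 3 hr (-0.03, 0.8) and Ddit3 at 17.2 ± 0.824 CPM at 1 hr and 19.4 ± 0.176 CPM at 3 hr (0.16, 0.17; 0.42 and called with the offsets). Of 32 genes of glycolysis and hypoxia 8 rose and 1 fell, but 5 rose and 4 fell with the offsets. Hk2, the inducible hexokinase, was at 13, 14 and 13.2 CPM and then at 31.1, 28.7 and 31.1 CPM (log2 fold change 1.17, SE 0.09, adjusted p = 0.00014), but the hypoxia targets Vegfa (0.15, 0.25) and Ldha (0.05, 0.66) did not pass. Of 23 genes of cholesterol synthesis and uptake 7 rose and 3 fell, against 4 and 3 with the offsets and 6 and 6 without 3 hr LTP replicate 2. Of 20 regulators of mRNA decay 5 rose and 5 fell, against 6 and 3 with the offsets, 2 and 5 without 1 hr LTP replicate 1 and 3 and 6 without 3 hr LTP replicate 3. Called members included Elavl4, a neuronal stabilizer of AU-rich transcripts, lower (-0.64, 0.0017) and the decay factor Khsrp higher (0.74, 0.0027).

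Of 21 clock genes 7 rose and 1 fell, against 5 and 3 with the offsets and 12 and 2 without 3 hr LTP replicate 2. Per2 rose from 52.2 to 82.4 CPM (0.65, 0.003) and Cry1 from 17.9 to 26.8 CPM (0.57, 0.0037), both repressors of the clock, while Ciart fell from 27.7 to 15.9 CPM (-0.81, 0.00082). The ribosomal protein genes divided into 21 higher and 17 lower of 79, the genes of oxidative phosphorylation into 14 higher and 22 lower of 81 (9 and 29 without 3 hr LTP replicate 2) and those of the proteasome into 5 higher and 9 lower of 38 (2 and 8 without 1 hr LTP replicate 1, 3 and 4 without 3 hr LTP replicate 1, 2 and 6 without 3 hr LTP replicate 3). Their medians were 0.01, -0.09 and -0.11, and 0.04, -0.04 and -0.01 with the offsets. The shares higher and lower were 26.6% and 21.5%, 17.3% and 27.2%, and 13.2% and 23.7%, beside 18.5% and 15.9% of all genes tested. Of 48 tested replication-dependent histone genes, whose transcripts lack a poly(A) tail, 17 rose and 2 fell (median 0.33; 14 and 3 with the offsets). Hist1h4a was at 6.44, 5.48 and 7.99 CPM and then at 21.3, 20.5 and 23.5 CPM (log2 fold change 1.7, SE 0.13, adjusted p = 0.00019). Histone genes are near-identical copies, so the share of reads given to each is uncertain.

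Some genes that the study's text uses as examples belong to no list. Creb1, the cAMP-responsive factor itself, fell from 101, 106 and 103 CPM to 77.3, 80.1 and 70.9 CPM (log2 fold change -0.45, SE 0.07, adjusted p = 0.0022). Notch1, a receptor of cell contact signalling, rose from 23.1, 20.7 and 21 CPM to 41.7, 34.4 and 54.2 CPM (log2 fold change 1, SE 0.15, adjusted p = 0.0019), with 3 hr LTP replicate 3 the highest. Wdr33, a subunit of the cleavage and polyadenylation complex, was at 64.4 ± 1.84 CPM at 1 hr and 70.9 ± 1.75 CPM at 3 hr and did not pass (0.13, 0.17). Hprt, one of the genes by which samples were chosen, was at 113 ± 2.33 CPM at 1 hr and 103 ± 11.8 CPM at 3 hr (-0.14, 0.23) and turned to 0.28 with offsets for GC content and length (adjusted p = 0.0071).

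Outside the protein-coding genes, the largest changes lay in loci whose counts are uncertain. Of 887 processed pseudogenes tested, 302 fell (34.0%) and 47 rose (5.30%). Among called genes that averaged 1 CPM or more, with groups apart and under 20% of exonic bases shared with another gene, the 8 largest falls were all those of pseudogenes, copies of other genes whose reads depend on how multiple alignments were treated. The largest were Gm13292, at 4.49, 7.88 and 4.09 CPM and then 0.954, 1.3 and 0.818 CPM (log2 fold change -2.42, SE 0.29, adjusted p = 0.0009), Gm16409 (-2.31) and Gm5558 (-2.3), and the rest were Rpl19-ps1 (-2.18), Gm12201 (-2.07), Gm10925 (-1.97), Gm13339 (-1.84) and Gm11625 (-1.83). Chosen after their values were seen, the largest falls by the same rule among protein-coding genes were those of Gpr183, an oxysterol receptor of immune cells, at 1.46, 2.4 and 1.83 CPM and then 0.727, 0.527 and 0.422 CPM (log2 fold change -1.76, SE 0.28, adjusted p = 0.0025), Ankfn1 (-1.53), P2ry13 and P2ry12. Of 182 snoRNA genes 57 rose (31.3%) and 3 fell (1.65%), and of 113 loci annotated as miRNA 54 rose (47.8%) and 4 fell (3.54%).

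The largest rises were those of such loci. Gm24187 was at 3.6, 0.976 and 2.49 CPM at 1 hr and 39.5, 8.79 and 217 CPM at 3 hr (log2 fold change 5.2, SE 1.04, adjusted p = 0.0061), and Gm23935 at 264, 105 and 176 CPM and then 2156, 486 and 10047 CPM (log2 fold change 4.53, SE 0.9, adjusted p = 0.0061). Gm25911 followed the same order of libraries (4.54, 1.49 and 29.1 CPM at 3 hr; 3.45). In all of them 3 hr LTP replicate 3 was far above the others, and without that library the log2 fold changes were 3.33, 2.86 and 1.5. Gm42418, which shares nearly all its exonic bases with another gene, was at 400.1, 155 and 168 CPM and 618, 363 and 4463 CPM (log2 fold change 2.9, SE 0.82, adjusted p = 0.025), and at 1.01 without 3 hr LTP replicate 3. Gm26917 rose evenly, from 578, 428 and 532 CPM to 1410.3, 1160.2 and 1630.3 CPM (log2 fold change 1.44, SE 0.14, adjusted p = 0.00039), as did Rmrp, the RNA of RNase MRP, from 406 to 951 CPM (1.22, 0.00019). Of 12 nuclear long noncoding RNAs 4 rose and 2 fell. Neat1, the scaffold RNA of nuclear paraspeckles, rose from 114 to 252 CPM (1.13, 0.0042), whereas Malat1 was at 13799 ± 512 CPM at 1 hr and 15517 ± 2667 CPM at 3 hr and did not pass (0.16, 0.31).

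By absolute change in CPM, abundant transcripts led the falls. Rn7sk, the 7SK RNA that holds P-TEFb inactive, was at 12256, 11582 and 11509 CPM and then at 9739, 8252 and 9599 CPM (log2 fold change -0.37, SE 0.08, adjusted p = 0.0095). Ppp3ca, the catalytic subunit of calcineurin, fell from 3468, 3513 and 3661 CPM to 2673, 2639.9 and 2359 CPM (log2 fold change -0.48, SE 0.08, adjusted p = 0.0023), Calm2 from 2376 to 1555 CPM (-0.62, 0.0021) and Map2, a dendritic microtubule protein, from 2842 to 2263 CPM (-0.34, 0.006). The groups did not overlap in any of these 4 genes. Mbp, a myelin protein, was the coding gene with the largest rise in CPM (from 2829.8 to 3484 CPM; 0.29, 0.033), and its call was lost with offsets for GC content and length and without 1 hr LTP replicate 1 or 3 hr LTP replicate 3. Small p values also went to even falls in Dnajc8 (119, 127 and 119 CPM, then 66.3, 66.5 and 64.3 CPM; log2 fold change -0.9, SE 0.07, adjusted p = 0.00014), Cfdp1 (-0.86, 0.00019) and Swi5 (-0.76, 0.00024).

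The time course of LTP slices was set beside that of control slices, which share no libraries with it but came from the same animals. In control slices 6102 of 18584 genes were called (32.8%), 2987 higher (16.1%) and 3115 lower (16.8%). Of the 6056 genes called in LTP slices, 4112 were called in the same direction in controls (67.9%), and these were 69.3% of the 5930 control calls among the same genes. Only 10 genes were called in opposite directions (4833422M21Rik, Foxc1, Gm15712, Gm20491, Junb, Pheta2, Rasl11a, Shisa6, Sptssb and Wipf3). Median changes of the lists, set side by side, stood at 1.08 in LTP and 0.95 in control slices for NF-kB and cytokine genes and at -0.42 and -0.39 for microglial markers, and at 0.57 and 0.895 for genes of reactive astrocytes.

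**Figure D4:**
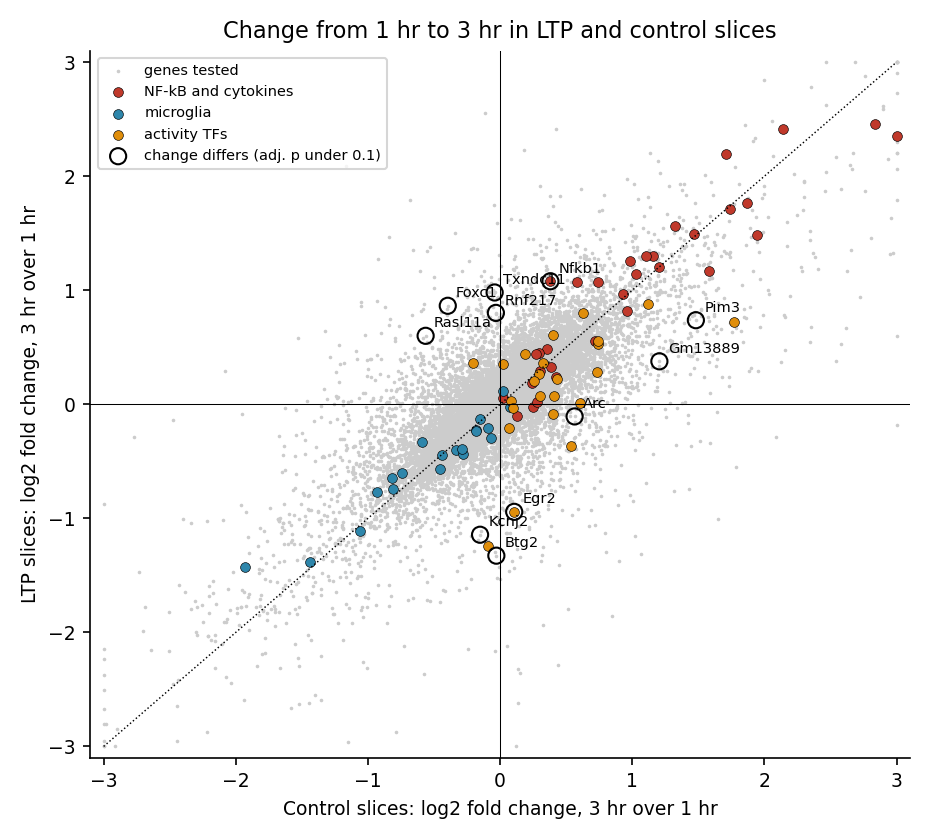
Log2 fold change from 1 hr to 3 hr in LTP slices (vertical) against that in control slices (horizontal) for each gene tested (grey), with values beyond 3 drawn at the edge and the dotted line marking equal change. Colours mark 32 NF-kB and cytokine genes, 20 microglial markers and 24 immediate-early transcription factors, and open circles the 11 genes whose change differed between LTP and control slices.

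The difference between the changes was tested directly as an interaction, and 11 of 18584 genes passed an adjusted p of 0.1 (0.0592%), with 1225 at an unadjusted p under 0.05 (6.59%). DESeq2 called 80 genes, and leaving out 1 library gave from 1 (without 1 hr control replicate 3) to 67 (without 3 hr LTP replicate 2). LTP and control slices came from the same animals. With animal within time point as a block, in a fit of all 12 libraries, 7 genes passed, not all of them among the 11. Among the 11, Arc (adjusted p = 0.57), Pim3 (0.53), Gm13889 (0.38), Foxc1 (0.27) and Rnf217 (0.17) did not pass. Without the block, those 12 libraries lost the same genes except Rnf217. Of the 11, 10 were also called over time in LTP slices, and Arc was not. Btg2, Egr2 and Kcnj2 fell in LTP slices and did not pass in controls, where their log2 fold changes were -0.03, 0.11 and -0.15. The interaction was -1.31 (SE 0.11, adjusted p = 0.00022) for Btg2, -1.06 (0.18, 0.079) for Egr2 and -1 (0.15, 0.031) for Kcnj2. Txndc11, a thioredoxin-domain protein of the endoplasmic reticulum, was at 57.9, 48 and 47.4 CPM at 1 hr and 102, 91.2 and 111 CPM at 3 hr of LTP (log2 fold change 0.98, SE 0.1, adjusted p = 0.0005), while controls lay at 34.8, 37 and 42.7 CPM and 40.3, 37.4 and 37.5 CPM. Rnf217, a ubiquitin ligase, went from 65.7, 56.2 and 47.1 CPM to 98.8, 105 and 92.7 CPM (log2 fold change 0.8, SE 0.11, adjusted p = 0.0017), with controls between 45.3 and 51.1 CPM.

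Nfkb1 rose in both, by 1.08 in LTP and 0.38 in control slices, and its rise was larger in LTP slices (interaction 0.69, SE 0.09, adjusted p = 0.017). It was the only one of the 32 NF-kB and cytokine genes to pass. Rasl11a, a small GTPase, rose in LTP slices from 42.9, 34.1 and 38.2 CPM to 60.4, 59.2 and 56.4 CPM (log2 fold change 0.6, SE 0.09, adjusted p = 0.0021) and fell in controls, from 17.2, 18.6 and 24.6 CPM to 16.3, 14 and 13 CPM (log2 fold change -0.56, adjusted p = 0.0083). Foxc1, a forkhead factor of mesenchymal and mural cells, was at 3.09, 3.27 and 3.41 CPM and then at 5.41, 5.74 and 6.78 CPM (log2 fold change 0.86, SE 0.13, adjusted p = 0.0022), against a control change of -0.4 (0.071). Pim3, a serine kinase, rose in LTP slices from 39.5, 35.1 and 41 CPM to 65.3, 62.4 and 66.4 CPM (log2 fold change 0.74, SE 0.08, adjusted p = 0.00055), and by 1.48 in controls, so that its rise was the smaller in LTP slices. Gm13889 did so too, with 0.38 in LTP (0.0076) and 1.21 in control slices; with offsets for GC content and length its LTP value was -0.14. Arc rose by 0.56 in controls (0.00023) with no call in LTP slices. Npas4 (-1.16, adjusted p = 0.24) and Fos (-0.49, 0.33) did not pass the interaction.

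The signs of the interaction were uneven in some lists. Of 18 endothelial and mural markers, 17 had a positive interaction, with a median of 0.29, against 8976 of the 17582 genes tested in both and their median of 0.004, and 6 had an unadjusted interaction p under 0.05, though 0 passed adjustment. Acta2, smooth muscle actin, changed by -0.34 in LTP and -0.98 in control slices, and Pecam1, an adhesion molecule of endothelium, by 0.03 and -0.37. Of 40 glutamate receptors and scaffolds, 32 had a positive interaction (median 0.13), 10 with an unadjusted p under 0.05 and 0 after adjustment, and of 12 nuclear long noncoding RNAs 11 (median 0.17, 4 with an unadjusted p under 0.05). Grin2b, an NMDA receptor subunit, changed by 0.2 in LTP slices and by -0.34 in controls. Of 23 genes of cholesterol synthesis and uptake, 17 had a positive interaction (median 0.04, 1 with an unadjusted p under 0.05). Of 35 effector genes of activity, 13 had a positive interaction (median -0.09), and 15 had an unadjusted p under 0.05. Of these effector genes 4 passed adjustment (Arc, Btg2, Pim3 and Rasl11a). Other lists had few positive interactions, with 7 of 79 ribosomal protein genes (median -0.10), 16 of 81 genes of oxidative phosphorylation (median -0.05), 6 of 24 immediate-early transcription factors (median -0.22, 8 with an unadjusted p under 0.05, and Egr2 after adjustment), 5 of 20 genes of reactive astrocytes (median -0.13), 5 of 38 of the proteasome (median -0.07), 4 of 18 oligodendrocyte markers (median -0.13) and 5 of 20 regulators of mRNA decay (median -0.09).

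Base composition moved with time in these libraries. The median GC content, taken from the longest transcript of each gene, was 54.9% among genes that rose in LTP slices, 45.1% among those that fell and 49.5% over all genes tested. When the genes were divided into 5 equal groups by GC content, 43.2% rose and 3.79% fell in the highest group (from 55.4%), and 4.72% rose and 32.2% fell in the lowest (up to 43.8%). In each library, the median level of the highest group minus that of the lowest (log2, relative to the mean of the 12 libraries) was -0.20, -0.42 and -0.19 at 1 hr of LTP and 0.17, -0.01 and 0.34 at 3 hr, with no overlap. Control libraries 1 and 3 at 1 hr stood at -0.20 and -0.29, replicate 2 at 0.13, and the 3 hr controls at 0.10 to 0.34. With offsets that remove such trends from each library, 4418 genes were called, 2188 higher and 2230 lower, and of 6002 main calls that could be tested 3345 kept their call and direction, 231 changed sign and 4 were called in the opposite direction. The part of base composition in each change was not tested further, and it and time cannot be told apart where both move together.

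**Figure D5:**
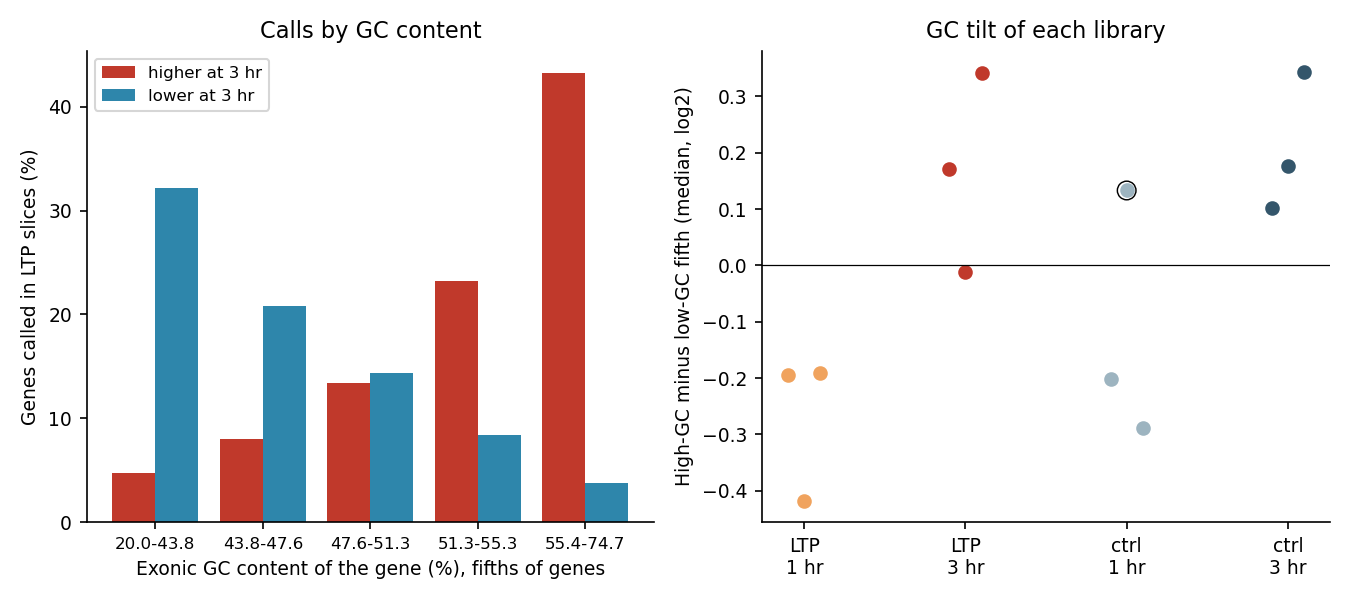
Left, percent of genes called higher and lower at 3 hr in LTP slices in 5 equal groups of genes by exonic GC content, taken from the longest transcript of each gene. Right, for each library, the median level of the highest GC group minus that of the lowest (log2, relative to the mean of the 12 libraries); the circled point is 1 hr control replicate 2. All 1 hr LTP libraries lie at or below -0.19 and all 3 hr LTP libraries at or above -0.01.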

How the data were processed

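Total RNA of hippocampal slices was sequenced from 12 samples in 4 groups of 3 animals. The values are counts of reads per gene that the authors deposited, made per the study's methods from stranded, ribosome-depleted libraries by alignment to GRCm38/mm10 with STAR and counting in R. Use of strand, treatment of multiple alignments and the annotation release are not given in the sources used here. The study compared expression from reads in coding regions only. Whether the deposited counts of coding genes are limited in this way is not given either. The submitters' processing notes name DESeq2.

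The 6 LTP libraries were fitted alone with edgeR 4.0.16 (R 4.3.3; filterByExpr, TMM, quasi-likelihood F test, Benjamini-Hochberg adjustment over all genes tested), and a call needed a fold change over 1.2 with an adjusted p under 0.1. SE was taken as the log2 fold change divided by the square root of F. The control time course and the interaction (LTP change minus control change) came from a fit of the 4 groups without 1 hr control replicate 2, which the study set aside as an outlier; the interaction had no fold minimum. Of the 41091 gene IDs, 40217 matched GENCODE M21, the source of names, types, exonic length and GC content. GC content was that of the longest transcript of a gene, and exonic length that of all its exons merged. Promoter sequences were those of RefSeq. Printed levels are CPM scaled by TMM over the 12 libraries. A count of 3 was taken as the floor of detection and corresponded to 0.0673 to 0.0808 CPM in the LTP libraries. Such a floor covers counting error only, whereas SD and SE also include variation between the animals of a group.

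Genes were named by rule: the 8 largest changes each way among called genes averaging 1 CPM or more, with groups apart and under 20% of exonic bases shared; the 5 smallest p and the 5 largest changes in CPM in each direction; called genes that passed the interaction; members of the gene lists; and examples from the study's text. Some genes that the rule names are not reported here. The members and lists were chosen with earlier results of these data known, so counts over lists are descriptions. The fit was tested on simulated counts. The alternatives were DESeq2 1.42.0, limma-voom (limma 3.58.1), other scalings and filters, offsets for GC content and length, other thresholds, other sets of libraries, a replicate block, and leaving out each library. The animal numbers 1 to 3 recur at both times, and the labels do not say that they are the same animals. For that reason the numbers were not taken as pairs. Deviations from the group means correlated by 0.098, 0.302 and 0.1 between 1 hr and 3 hr LTP libraries of the same number. LTP and control libraries of the same animal and time correlated by only -0.251 to 0.304, so such correlations cannot decide the matter.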

Additional observations from a re-analysis of the deposited data

Results flagged for a closer look

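For 11 genes the change from 1 hr to 3 hr differed between LTP and control slices by the interaction test. The differences are log2 values, LTP change minus control change, from the edgeR fit of 4 groups with 11 libraries, and the adjusted p is over 18584 genes. Lower in LTP slices than the control course were Btg2 (-1.31, adjusted p = 0.00022), Egr2 (-1.06, 0.079), Kcnj2 (-1, 0.031), Gm13889 (-0.84, 0.023), Pim3 (-0.75, 0.031) and Arc (-0.68, 0.031). Higher were Nfkb1 (0.69, 0.017), Txndc11 (1.01, 0.031), Rasl11a (1.16, 0.05), Foxc1 (1.25, 0.073) and Rnf217 (0.83, 0.079). All 11 kept their sign under the 21 alternatives run for the interaction. Btg2 passed under all of them and Nfkb1 under all but the fit without 1 hr control replicate 3 (0.64, adjusted p = 0.17). Kcnj2 and Gm13889 passed under 17 of the 21, Txndc11 and Rasl11a under 16, Arc under 14, Pim3 under 13, Egr2 and Foxc1 under 12 and Rnf217 under 9. With all 12 libraries, Arc was at -0.44 (adjusted p = 0.67), Pim3 at -0.54 (0.53), Gm13889 at -0.64 (0.35) and Foxc1 at 1.13 (0.12). With animal within time point as a block in the same 12 libraries, these genes and Rnf217 (0.78, 0.17) did not pass. Groups of 3 libraries are too small for a test of single outlying samples. Every library of the series served in a comparison or as a reference except 1 hr control replicate 2, which entered only the alternatives and the values per library.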

How the results depend on the processing

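The count of genes called in LTP slices, 6056, was 5683 to 6676 under other tools, scalings, filters on low counts and sets of groups, 4418 with offsets for GC content and length, 4972 at an adjusted p under 0.05, 7066 with no fold minimum, 5261 among coding genes, and 2601 (1512 higher, 1089 lower) under glmTreat, which tests against 1.2-fold. Leaving out 1 library gave 4631 to 7104 (2524 to 3706 higher, 2095 to 3398 lower). With a replicate block of animal numbers across the times 6416 were called, and 1 hr LTP replicates 2 and 3 correlated best with their own number at 3 hr (0.302 and 0.1) but replicate 1 with number 3 (0.215, against 0.098 with its own). For the interaction, the 11 calls became 80 with DESeq2, 102 with no filter on low counts, 23 with offsets for GC content and length and 7 with a replicate block of animal within time point, which Arc, Pim3, Gm13889, Foxc1 and Rnf217 did not pass. Leaving out 1 library gave 1 to 67. The count was lowest when the left-out library was 1 hr control replicate 3 (1), 3 hr control replicate 3 (3) or 2 (4), 3 hr LTP replicate 1 (4), 1 hr LTP replicate 1 or 2 (7 each) or 1 hr control replicate 1 (7), and highest when it was 3 hr LTP replicate 2 (67), 1 hr LTP replicate 3 (25) or 3 hr LTP replicate 3 (22); the cause was not tested. The control count was 4991 with all 12 libraries, 6592 from 5 control libraries alone and 5878 with DESeq2. Of 1389 values under 21 alternatives for 67 genes named by size, p, interaction or the study's text, list members aside, 1369 kept their direction and call, 16 lost the call, 2 gained one (Arc and Gadd45g, lower with GC and length offsets) and 2 changed direction: with the same offsets Gm13889 was at -0.14 (adjusted p = 0.39) and Hprt at 0.28 (adjusted p = 0.0071). Among list members given in the text, the offsets turned Egr4 to -0.06 and Jund to -0.09. The offsets also turned the direction of 231 of the 6002 main calls they could test; the cause was not tested. Animals were treated as different between the times, so an animal effect cannot be told apart from time. Counts limit the precision of scarce transcripts such as Il10 and Has1 at 1 hr. The scalings moved the median of all genes by under 0.1 (log2).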
